A study of Mus musculus with 24 samples.

Results

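The stretch of the Selenop mRNA that ribosomes cross before the first selenocysteine codon comprises nucleotides 1 to 328. It is made up of the leader, nucleotides 1 to 154, and of codons 1 to 58 of the reading frame, nucleotides 155 to 328. Each nucleotide was taken as 1 region, so 328 of the 2096 nucleotides of the deposited table belonged to it. The stretch was chosen by measured counts, which set the reading positions. The highest position near the 5′ end, nucleotide 158, was taken as the initiation peak, which puts the start codon at nucleotides 155 to 157, and codon 59 was taken as UGA1, the first codon for selenocysteine. The height of the peak and the place of the boundaries are therefore descriptions and carry no test. At the boundary, codon 58 held 6 to 43 counts per grouped library, and codon 59, the first codon outside, held 15 to 131.

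Selenop encodes selenoprotein P, a secreted protein of the liver that carries selenium to other organs. Its reading frame holds UGA codons that are read as selenocysteine with the help of SECIS elements, RNA structures in the 3′UTR of the same mRNA. Ribosomes first scan the leader and meet the start codon; once elongation has begun, the density of footprints at a codon rises with the rate of initiation and with the time that ribosomes spend there. Selenop carries 2 SECIS elements, SECIS1 and SECIS2. Footprints between the start codon and UGA1 come from ribosomes that have started and have not yet met a selenocysteine codon.

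Ribosome profiling, in which RNase I digests the RNA outside ribosomes and the protected fragments are sequenced, was run on liver of C57Bl6 mice fed standard chow. The groups were 3 libraries labelled SECIS1 WT, 2 labelled SECIS1 deletion, 3 labelled SECIS2 WT and 3 labelled SECIS2 deletion; ages and the extent of each deletion are not given in the labels. A further library, whose title names no group but whose column heading calls it Secis1 Del, entered no main comparison and is called the ungrouped library. The question put by the title is how RNA structures of Selenop affect initiation and the reading of UGA. The sample descriptions carry codes whose prefix differs between the 2 lines; the labels do not say what the codes mark, and line cannot be told apart from a batch they may mark, so each deletion was compared with the wild type of its own line. The labels do not tie libraries to separate animals, and the spread that p-values rest on may therefore be technical. The tables hold a single mRNA, so the liver label could not be checked against marker genes, and in bulk tissue fewer cells of a type and less RNA per cell cannot be told apart.

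Footprints were counted at the nucleotide assigned to the ribosomal A site, the place where the next transfer RNA enters. Nucleotides 1 to 328 held 2837 to 16204 counts per grouped library and 9820 in the ungrouped library. After codon 378, in a stretch that holds the 3′UTR, the SECIS1 deletion libraries had 23 and 44 counts and the SECIS1 wild type libraries 10797 to 21201. SECIS2 wild type replicate 3 stood apart there, with 1540 counts beside 19467 and 6881 in the other SECIS2 wild type libraries and 4142 to 5955 in the deletion. Values are given on either of 2 scales. The authors' ratio, given here times 1000, sets mapped-read-scaled footprints against mapped-read-scaled RNA-seq reads of Selenop, so it is a level per RNA. The other scale sets counts against those at codons 7 to 53 of the same library and describes the shape of the profile.

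Codons 3 to 6, nucleotides 161 to 172, the first codons after the initiation peak, rose in both deletions per RNA. The limits of this stretch were set knowing that codons 3 and 6 had risen in the SECIS2 deletion, so its SECIS2 value is not independent of that choice. In the SECIS1 wild type libraries the ratio summed over codons 3 to 6 was 3.43, 2.97 and 3.49, and in the SECIS1 deletion it was 7.0 and 6.14. Both deletion libraries lay above all 3 wild type libraries, with means 1.99-fold apart. In the SECIS2 line the values were 2.35, 2.95 and 3.44 in wild type against 4.56, 5.52 and 7.88 in the deletion. Here too all 3 deletion libraries lay above all 3 wild type libraries, and the means were 2.06-fold apart. These values rest on 243 to 544 counts in SECIS1 wild type, 495 and 394 in the SECIS1 deletion, 114 to 442 in SECIS2 wild type and 524 to 732 in the SECIS2 deletion.

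The log2 change at codons 3 to 6 was 0.99 in the SECIS1 deletion (SE 0.25, 95% interval 0.43 to 1.56, adjusted p = 0.0190 in edgeR) and 1.04 in the SECIS2 deletion (SE 0.23, 95% interval 0.52 to 1.55, adjusted p = 0.0113 in edgeR). The effects of both deletions differed by -0.04 (SE 0.34, 95% interval -0.81 to 0.72, adjusted p = 0.949 in edgeR). A p this large does not show that the deletions acted alike. The exact two-sided permutation p on the ratio was 0.1 in each line, the smallest these group sizes allow. The SECIS1 value ended its call without wild type replicate 2 (0.92, adjusted p = 0.0574 in edgeR) and without deletion replicate 2 (0.90, adjusted p = 0.109 in edgeR), and the SECIS2 value in a fit of the compared groups alone (adjusted p = 0.055 in edgeR). Without SECIS2 wild type replicate 3, the SECIS2 value was 1.18 (adjusted p = 0.0115 in edgeR). Per RNA, 10 stretches of the mRNA were tested in each comparison. In each line 10% of them, that is this stretch alone, were called higher, and 10% were called lower, which was 1 stretch after UGA1.

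**Figure D1:**
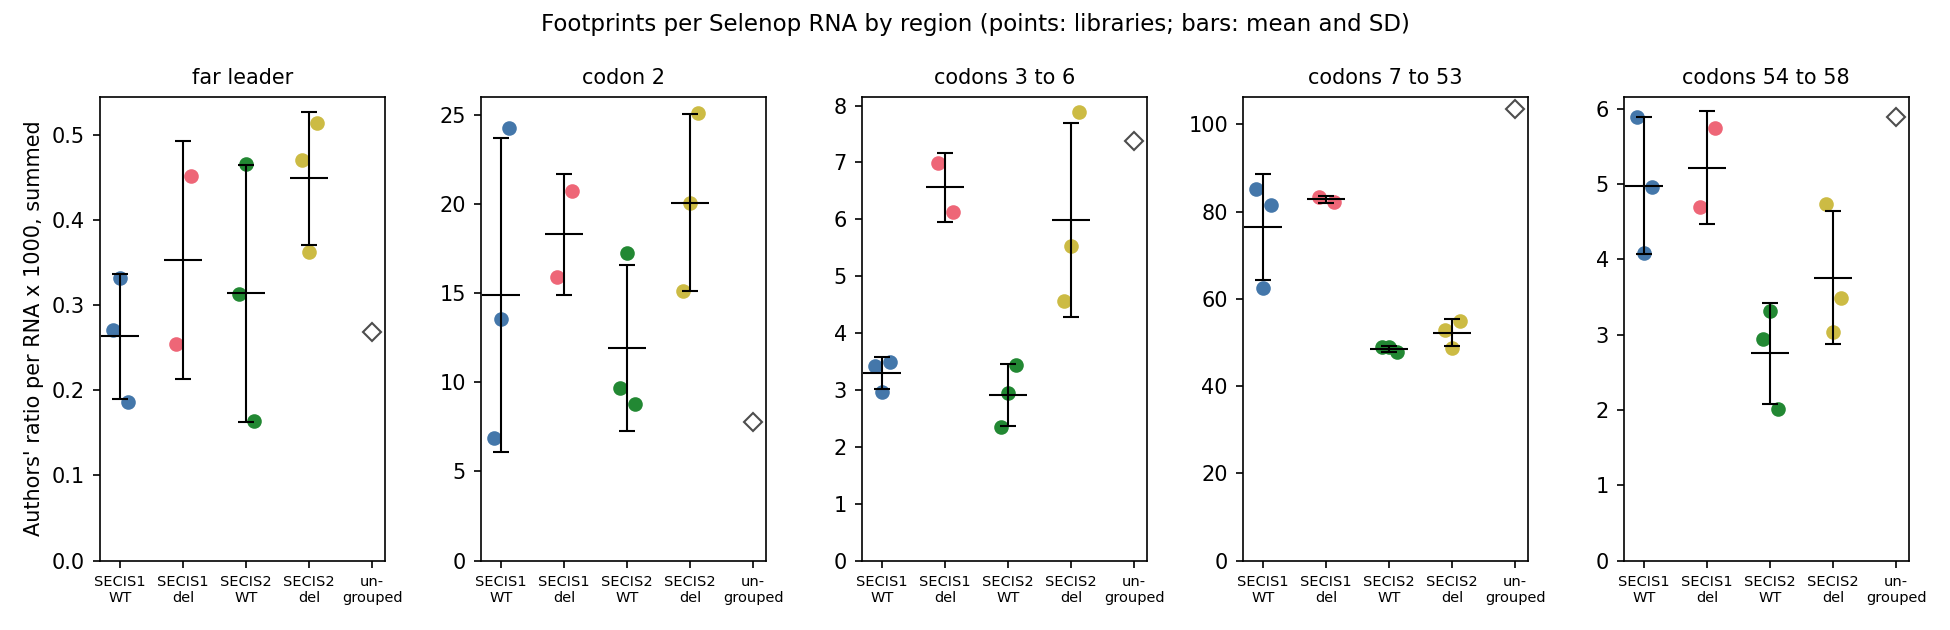
The authors' ratio times 1000, summed over 5 stretches before UGA1 (vertical axes, linear from 0), for each library of the 4 groups and for the ungrouped library (open diamond). Points are libraries, and bars give the mean and SD. At codons 3 to 6 the SECIS1 deletion libraries sit at 6.14 and 7.0 above wild type values of 2.97 to 3.49, while at codon 2 and codons 7 to 53 deletion and wild type overlap.

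The stretches on both sides of codons 3 to 6 did not pass the test. At codon 2, which holds the initiation peak, the SECIS1 wild type ratios of 6.85, 13.5 and 24.3 spanned those of the deletion, 15.9 and 20.7. SECIS2 wild type gave 9.69, 17.3 and 8.79 at codon 2, and the SECIS2 deletion gave 15.1, 20.0 and 25.1. The log2 changes were 0.30 (SE 0.50, 95% interval -0.84 to 1.44) and 0.76 (SE 0.45, 95% interval -0.28 to 1.79), with adjusted p-values from edgeR of 0.806 and 0.438. The spread at codon 2 was wide: the coefficient of variation over the 6 wild type libraries was 48.5% at codon 2 and 14.2% at codons 3 to 6. A rise of the size seen at codons 3 to 6 lies inside both intervals for codon 2.

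Codons 7 to 53, nucleotides 173 to 313, hold most of the footprints before UGA1. They changed by 0.12 in the SECIS1 deletion (SE 0.14, 95% interval -0.20 to 0.43, adjusted p = 0.796 in edgeR). In the SECIS2 deletion the change was 0.10 (SE 0.12, 95% interval -0.18 to 0.38, adjusted p = 0.796 in edgeR). At codons 54 to 58, next to UGA1, changes were 0.07 (SE 0.28) and 0.45 (SE 0.25), with adjusted p-values from edgeR of 0.917 and 0.381. The start codon itself held 10 to 83 counts per grouped library. Of these, 69.2% to 100% lay at its last nucleotide, next to the initiation peak. Whether they belong to that peak was not tested. The change at the start codon was 0.41 (SE 0.85) in the SECIS1 deletion and -1.08 (SE 0.79) in the SECIS2 deletion, with adjusted p-values from edgeR of 0.869 and 0.552. The sign at the start codon turned in each line when 1 library was left out, with values down to -0.02 in the SECIS1 line and up to 0.42 in the SECIS2 line.

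Within codons 3 to 6, the rise was not carried by a single codon. Codon 5 exceeded codon 4 in 10 of 11 libraries and codon 4 exceeded codon 6 in all 11. The ratio at codon 5 was 1.51, 1.23 and 1.71 in SECIS1 wild type, 3.98 and 2.71 in the SECIS1 deletion, 0.889, 1.29 and 1.62 in SECIS2 wild type, and the SECIS2 deletion held 1.61, 2.11 and 3.82. The groups of the SECIS1 line did not overlap at codon 5, and those of the SECIS2 line did, by a narrow margin. At codon 4 the ratio was 1.13, 0.946 and 1.29 against 1.89 and 2.09 in the SECIS1 line, and 1.09, 1.27 and 1.07 against 1.53, 2.10 and 2.67 in the SECIS2 line. Groups did not overlap at codon 4 in either line. At codon 6 they did not overlap either, with mean ratios 1.95-fold apart in the SECIS1 line and 3.11-fold apart in the SECIS2 line. Codons 3 and 6 were the lowest, with codon 6 above codon 3 in 6 of 11 libraries. At codon 3 the SECIS2 groups were apart (2.44-fold between means) and the SECIS1 groups overlapped, with 0.297 in deletion replicate 2 below 0.365 in wild type replicate 2. On this ratio the deletion libraries all lay above wild type at 9 of the 58 codons in each line. In the SECIS2 line they all lay below it at 1. Groups this small can come apart by sampling alone, so non-overlap at single codons is a description. This happens more easily with the 2 deletion libraries of the SECIS1 line than with the 3 of the SECIS2 line. The equal counts therefore do not make the lines alike, and the share over the whole mRNA was not worked out.

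Taken relative to codons 7 to 53, single bins of 3 nucleotides were tested along the whole mRNA. Of the 110 bins before UGA1, 54 passed the filter on low counts: 52 of the 58 codons and 2 of the 52 bins of the leader. Bins pass this filter when they are high in at least 1 group, so those tested do not stand for all. The scale is the count at codons 7 to 53, where most of the 54 bins lie. Their changes are thus held near 0 as a set. Setting their median or called share beside that of all bins is therefore partly fixed by the scale. Codons 8, 16, 23, 24, 39 and 51 were too sparse. In the SECIS1 deletion edgeR called 0 of the 54, while codons 4 and 5, 2 bins, had an unadjusted p under 0.05; DESeq2 on the same scale called 0 as well. Over all 269 bins, 0.0% were called higher and 17.1% were called lower. The smallest p belonged to codon 5, with a log2 change of 1.05 (SE 0.39, adjusted p = 0.0973 in edgeR). The median change was 0.04 over the 54 bins and -0.01 over all bins tested.

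In the SECIS2 deletion, codons 3, 6 and 49 were called higher and codon 12 was called lower, 4 of 54 bins. Of all 269 bins, 1.86% were called higher and 33.8% were called lower, 35.7% in all. The median change was 0.17 over the 54 bins, most of which set the scale, and -0.88 over all. Codon 6 changed by 1.41 (SE 0.48, adjusted p = 0.0341 in edgeR), with occupancies, that is counts over the mean of codons 7 to 53, of 0.144, 0.0991 and 0.398 in wild type against 0.688, 0.595 and 0.558 in the deletion. All deletion values exceeded all wild type values, of which that of replicate 3 was the highest. By occupancy such a separation held at 6 of the 58 codons in the SECIS2 line, and the reverse at 1. In the SECIS1 line, with 2 deletion libraries, the numbers were 9 and 2. Such small groups can separate by sampling alone, and the share over the whole mRNA was not worked out. Codon 3 changed by 1.17 (SE 0.40, adjusted p = 0.0355 in edgeR), with 18, 11 and 44 counts in wild type against 74, 92 and 59 in the deletion. Codons 4 and 5 stood at 0.77 (SE 0.29, adjusted p = 0.0507 in edgeR) and 0.86 (SE 0.36, adjusted p = 0.0734 in edgeR).

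Codon 49, nucleotides 299 to 301, rose by 1.13 (SE 0.33, adjusted p = 0.0184 in edgeR). Its occupancy was 0.710, 0.644 and 1.02 in SECIS2 wild type against 1.38, 2.11 and 1.75 in the deletion, with no overlap. All SECIS1 values at this codon exceeded those of SECIS2 wild type, with 1.94, 1.56 and 1.12 in wild type against 1.55 and 1.74 in the deletion. The difference between the effects of both deletions at codon 49 was -1.04 (SE 0.48, adjusted p = 0.110 in edgeR). Codon 12, nucleotides 188 to 190, fell by 1.27 on the log2 scale (SE 0.40, adjusted p = 0.0246 in edgeR). Its occupancy was 2.01, 1.81 and 0.712 in SECIS2 wild type against 0.781, 0.414 and 0.665 in the deletion, so wild type replicate 3 lay within the deletion's range. At codon 12 the SECIS1 libraries of both genotypes lay between 0.717 and 1.09.

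The number of SECIS2 calls depended on single libraries. It was 10 without wild type replicate 3 (6 higher, 4 lower), beside 45.0% of all bins in the same fit. It was 0 without deletion replicate 2 and 1 without deletion replicate 3, beside 17.4% and 25.5%. Codon 49 was lost without wild type replicate 2 (1.01) or deletion replicate 2 (0.97). Leaving out any SECIS2 library other than wild type replicate 3 took the calls from codons 3 and 6, with values of 1.0 to 1.23 and 1.14 to 1.48. Without wild type replicate 3, codon 6 stood at 2.27 and stayed called. Codon 12 was lost without wild type replicate 1 (-0.98), wild type replicate 2 (-1.13), deletion replicate 2 (-1.05) or deletion replicate 3 (-1.33). TMM gave 13 calls among the 54 bins, 24.1%, beside 9.67% of all bins, and DESeq2 with its own size factors gave 17, 31.5%, beside 12.6% of all. The difference between the effects of both deletions was called at 0 of the 54 bins by edgeR and at 0 at an unadjusted p under 0.05, beside 30.9% of all 269 bins. DESeq2 with codons 7 to 53 as scale called 0 as well, and with its own size factors it called 4, beside 20.8% of all bins.

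**Figure D2:**
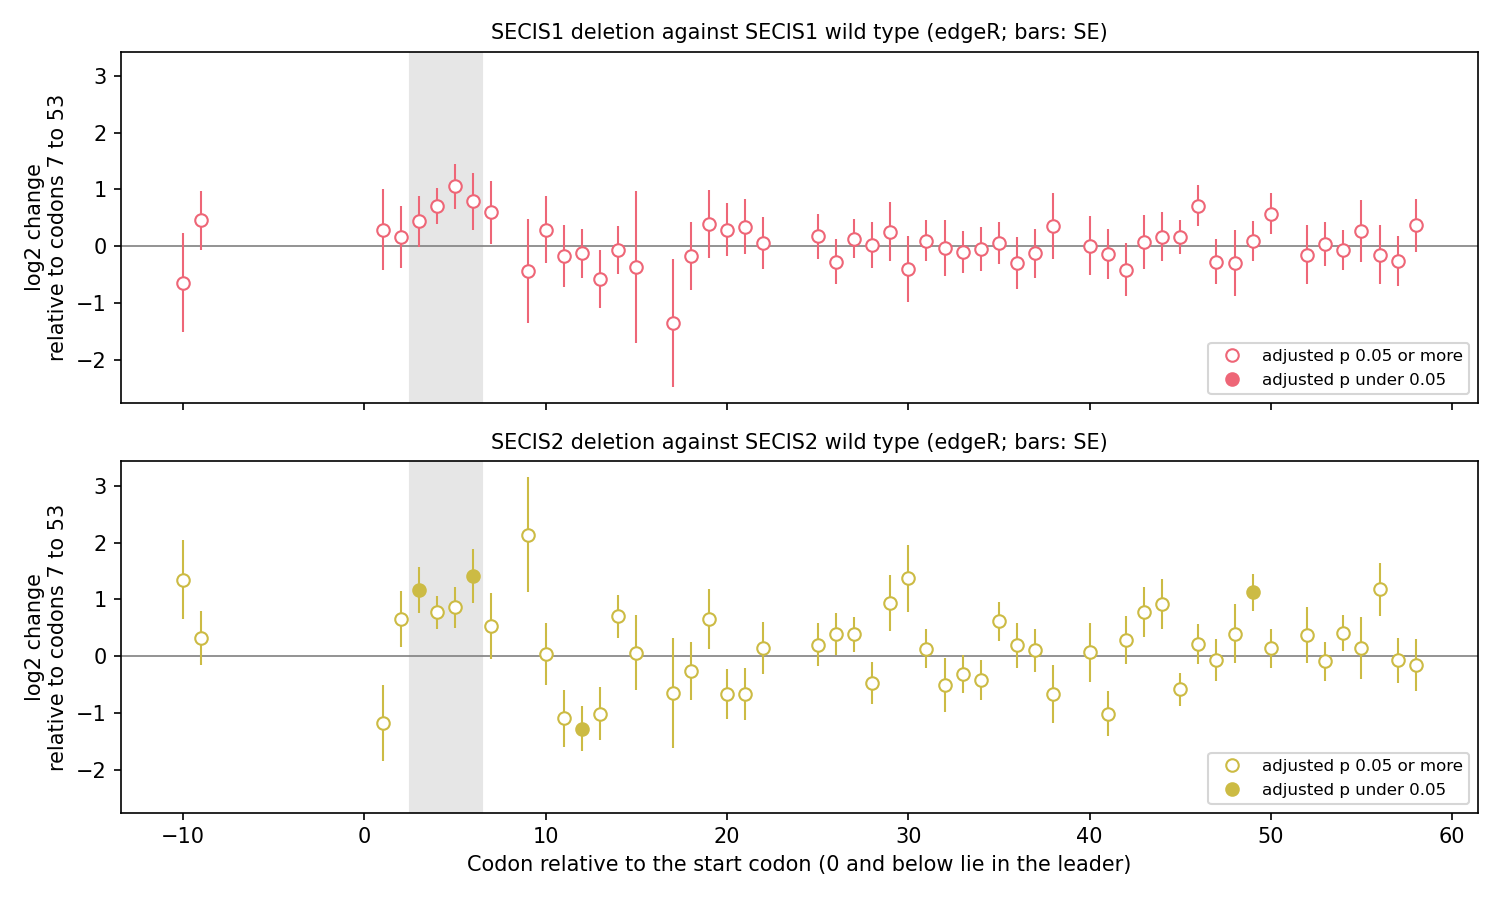
Log2 change of each tested bin of 3 nucleotides relative to codons 7 to 53 (vertical axis) along the leader and codons 1 to 58 (horizontal axis), in the SECIS1 line (top) and the SECIS2 line (bottom). Bars are SE, filled points passed an adjusted p of 0.05, and codons 3 to 6 are shaded. All 4 shaded codons lie above 0 in both lines, from 0.44 to 1.05 at the top and from 0.77 to 1.41 at the bottom.

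At single nucleotides, 112 of the 328 passed the filter, 2 of them in the leader. In the SECIS1 deletion edgeR called 0, against 3 with an unadjusted p under 0.05 and 0 called by DESeq2 on the same scale, beside 12.3% of all 473 nucleotides. The smallest p was at nucleotide 169, the last of codon 5, with a change of 1.48 (SE 0.60, adjusted p = 0.177 in edgeR). In the SECIS2 deletion nucleotides 182 and 300 rose and nucleotide 188 fell, 3 of 112, beside 14.2% of all. Nucleotide 300, the middle of codon 49, had 18, 6 and 33 counts in wild type against 73, 99 and 66 in the deletion, a change of 1.65 (SE 0.42, adjusted p = 0.0282 in edgeR). Nucleotide 182, the first of codon 10, had 5, 1 and 5 counts in wild type against 85, 38 and 6 in the deletion, a change of 2.94 (SE 0.86, adjusted p = 0.0355 in edgeR). Its deletion libraries were far apart, and codon 10 as a whole did not pass the test. Nucleotide 188, the first of codon 12, had 20, 7 and 21 counts in wild type against 9, 7 and 6 in the deletion, a change of -1.63 (SE 0.48, adjusted p = 0.0355 in edgeR). The difference between the effects of both deletions was called at 1 of 112 nucleotides, nucleotide 188, beside 13.1% of all 473. Among all 473, 4.44% were called with the SECIS1 change above the SECIS2 change and 8.67% with it below. The median difference over all 473, called or not, was 0.68. The SECIS2 calls depended on single libraries: without deletion replicate 1, 2 or 3 the number was 0 each time, beside 0.427%, 0.0% and 0.0% of all nucleotides. Without wild type replicate 3 it was 14, beside 29.7%, and in a fit of the compared groups alone it was 0, beside 0.0%.

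The profile before UGA1 was uneven in every library. In the 6 wild type libraries codon 2 held the largest share of the counts of nucleotides 1 to 328, 16.1% ± 5.91 (SD, n = 6), followed by codon 53 with 11.8% ± 1.66 (SD, n = 6) and codon 34 with 9.92% ± 1.90 (SD, n = 6). Codon 14 with 5.99% ± 2.20 (SD, n = 6) and codon 27 with 5.89% ± 0.914 (SD, n = 6) came next. Together these 5 of 58 codons held 39.2% to 57.6% of the counts in the 11 grouped libraries. Codon 53 exceeded codon 34 in 11 of 11 libraries and codon 2 exceeded codon 53 in 10 of 11, whereas codon 14 exceeded codon 27 in 7 of 11, so the order of codons 14 and 27 is not set apart from their spread.

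Occupancy at codon 53 was 6.22, 7.24 and 8.52 in SECIS1 wild type, 6.46 and 8.56 in the SECIS1 deletion, 5.69, 9.59 and 7.87 in SECIS2 wild type, and the SECIS2 deletion held 7.22, 7.44 and 7.12. The 4 groups overlapped. Codon 53 lies 6 codons before UGA1. Codon 34 ran from 4.42 to 7.93 over the 11 libraries, and codon 27 from 2.61 to 5.24. Of the 47 codons from 7 to 53, codons 14, 27, 34, 37 and 53 had a mean wild type occupancy above 2, and 11 had one under 0.1. Among the emptiest were codons 8 and 16, with 13 and 17 counts over the 11 grouped libraries. Codon 37 varied most among the high ones, at 7.72 in SECIS2 wild type replicate 3 and 1.90 to 5.92 in the other 10 grouped libraries.

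**Figure D3:**
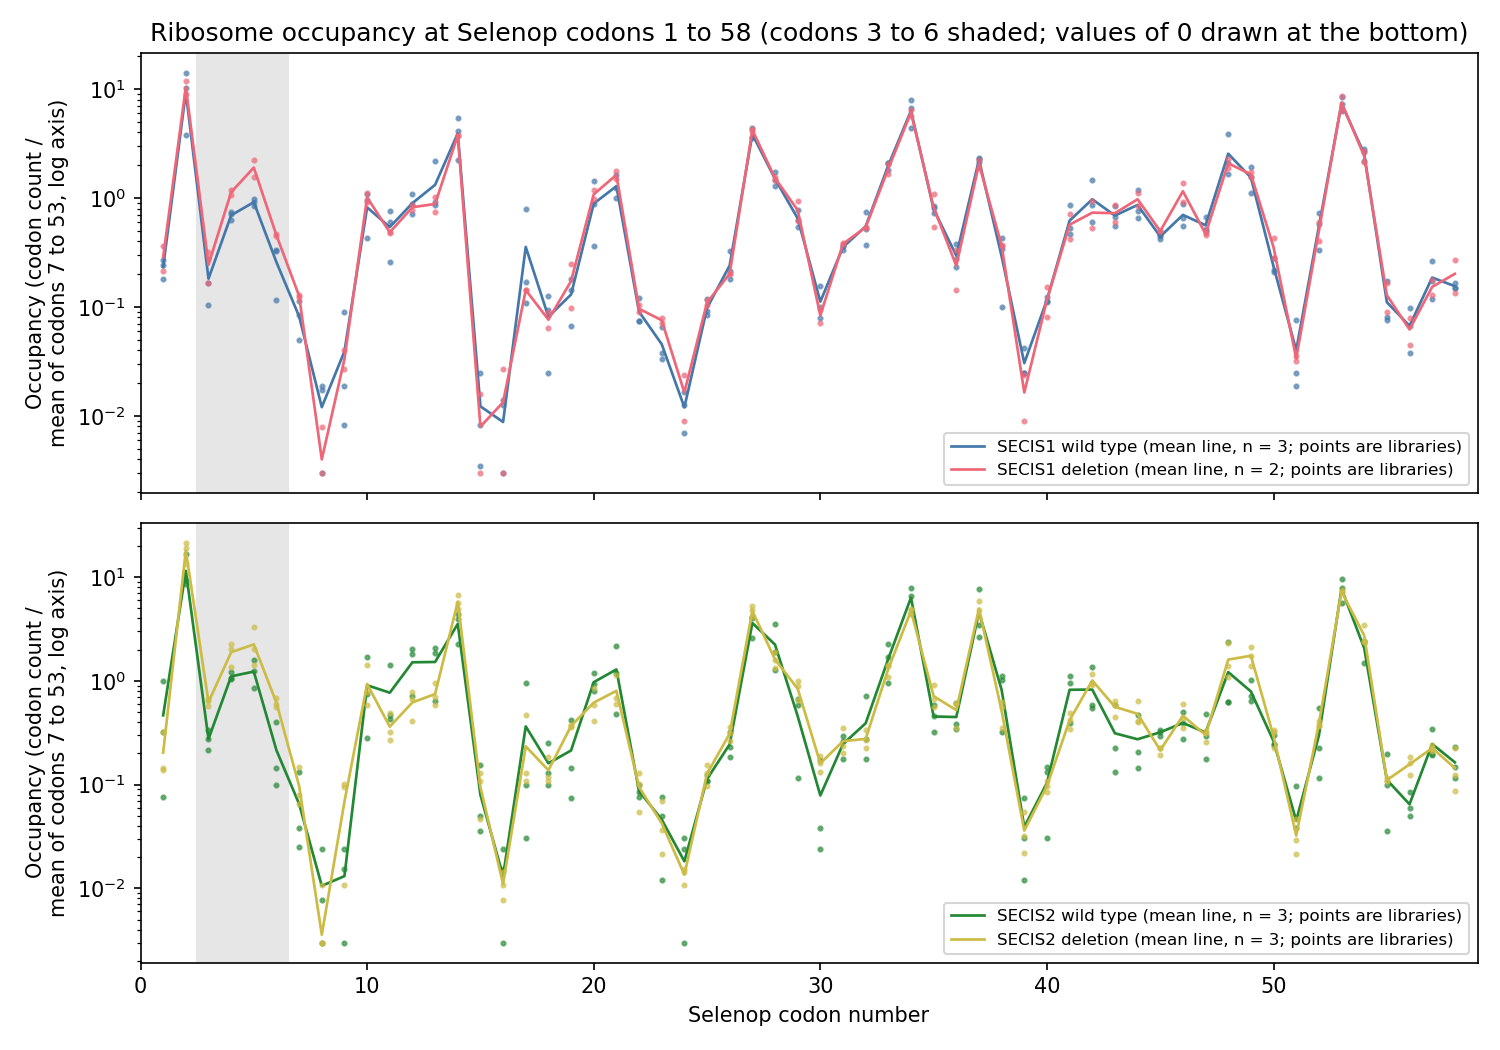
Occupancy of codons 1 to 58 (counts over the mean of codons 7 to 53, log axis) in the SECIS1 line (top) and the SECIS2 line (bottom). Lines are group means, points are libraries, and codons 3 to 6 are shaded. Peaks at codons 2, 14, 27, 34 and 53 and gaps such as codon 16 recur in all 4 groups, and the deletion lines run above wild type in the shaded stretch.

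The single nucleotides with the largest mean shares in wild type were 158 (12.3%), 311 (8.60%), 254 (6.21%), 255 (3.66%) and 263 (3.44%). The places of 255 and 263 rest on SECIS2 wild type replicate 3, without which their mean shares were 2.45% and 1.77%, ranks 11 and 14. The SD at nucleotide 263 was 4.15, above its mean. Nucleotide 158, the first of codon 2, held 943, 1317 and 1217 counts in SECIS1 wild type, 915 and 1068 in the SECIS1 deletion, 688, 491 and 741 in SECIS2 wild type, and the SECIS2 deletion held 1458, 2071 and 1441. Nucleotides 254 and 255 are the first and second of codon 34. In 10 of 11 libraries nucleotide 254 held more counts than 255, while SECIS2 wild type replicate 3 held 75 at 254 and 778 at 255. The same library held 941 counts at nucleotide 263, the first of codon 37, against 65 and 91 in the other SECIS2 wild type libraries. Its count at codon 34 as a whole, an occupancy of 6.56, lay between those of the other 2, at 4.55 and 7.93. Over codons 3 to 58, the first position of the codon held 49.3% to 69.0% of the counts, the second 21.0% to 37.6% and the third 9.09% to 18.2%.

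Profiles over codons 3 to 58 were alike between libraries. Pearson's r of log2 occupancy over 56 codons, with 0.01 added, had a median of 0.942 for 10 pairs within a group, 0.922 for 15 pairs of wild type and deletion of the same line, and 0.909 for 30 pairs across lines. These are descriptions across codons, which are not replicates, and libraries of the same line also share a code prefix. The lowest pairs within a group, 0.818 to 0.885, were those of the SECIS2 wild type libraries. The value of 0.818 was that of replicates 1 and 3. Pairs with replicate 2, the library with the fewest counts, stood at 0.857 and 0.885.

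The leader was almost empty. It held 45, 44 and 13 counts in SECIS1 wild type, 18 and 31 in the SECIS1 deletion, 26, 18 and 23 in SECIS2 wild type, and the SECIS2 deletion held 54, 49 and 42. Per nucleotide this was 0.210% to 0.878% of the density at codons 7 to 53. As a share of the counts before UGA1, the lowest was 0.163% (95% exact Clopper-Pearson interval 0.0867 to 0.278) in SECIS1 wild type replicate 3 and the highest 0.635% (0.376 to 1.0) in SECIS2 wild type replicate 2. These intervals cover counting error only. Of the 154 leader nucleotides, 119 had no count in any of the 12 libraries, among them the first 42. In the coding stretch, 2 of 174 nucleotides had none, and 111 had counts in all 11 grouped libraries.

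Leader counts lay in a narrow cluster. Nucleotides 120 to 127, that is 35 to 28 nucleotides before the start codon, held 292 of 363 leader counts in the 11 grouped libraries. This was 80.4%, and 60.9% to 94.4% in single libraries. The window runs from the first to the last leader nucleotide with 10 or more counts over these same libraries. Its high share is thus partly set by that rule and is a description. Over the 11 grouped libraries together the cluster had 2 maxima, at nucleotides 121 and 122 with 47 and 66 counts and at 126 and 127 with 66 and 55. Of the 66 at nucleotide 122, the SECIS2 deletion libraries held 9, 15 and 16. The last 15 nucleotides before the start codon held 13 counts in all, 11 of them at the last 2. Leader counts fell on the 3 frame positions at 34.4%, 26.2% and 39.4%, where the reading frame favoured the first. Because most of them lie at nucleotides 120 to 127, this split describes those few positions. It cannot tell whether leader footprints keep a frame.

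The 3 leader nucleotides with the largest mean wild type share were 126, 122 and 125. Without SECIS2 wild type replicate 2, the library with the fewest counts, nucleotide 127 led and 125 stood below 121, and by counts over the 6 wild type libraries 127 (25) and 121 (20) exceeded 125 (18). Nucleotide 122 held 4, 5 and 7 counts in SECIS1 wild type, 1 and 2 in the SECIS1 deletion, 2, 4 and 1 in SECIS2 wild type, and the SECIS2 deletion held 9, 15 and 16. Its change was -1.25 (SE 1.07) in the SECIS1 deletion and 1.81 (SE 0.82, adjusted p = 0.122 in edgeR) in the SECIS2 deletion, with a difference of -3.06 (SE 1.35, adjusted p = 0.128 in edgeR). Nucleotide 126, with 2 to 12 counts per grouped library, stood at 0.37 (SE 0.81) and 0.44 (SE 0.69). Nucleotide 125 had 1 to 4 counts and was not tested. Per RNA the leader up to nucleotide 139 changed by 0.40 (SE 0.45, 95% interval -0.62 to 1.42) and 0.58 (SE 0.40, 95% interval -0.33 to 1.5), with adjusted p-values from edgeR of 0.796 and 0.552. Scaled to the total count of the mRNA, the SECIS2 values of the leader (1.35, adjusted p = 0.0216 in edgeR) of codon 2 (1.46, adjusted p = 0.0262 in edgeR) and of codons 54 to 58 (1.20, adjusted p = 0.0189 in edgeR) passed the threshold. That scale holds the stretch after UGA1 and the 3′UTR.

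**Figure D4:**
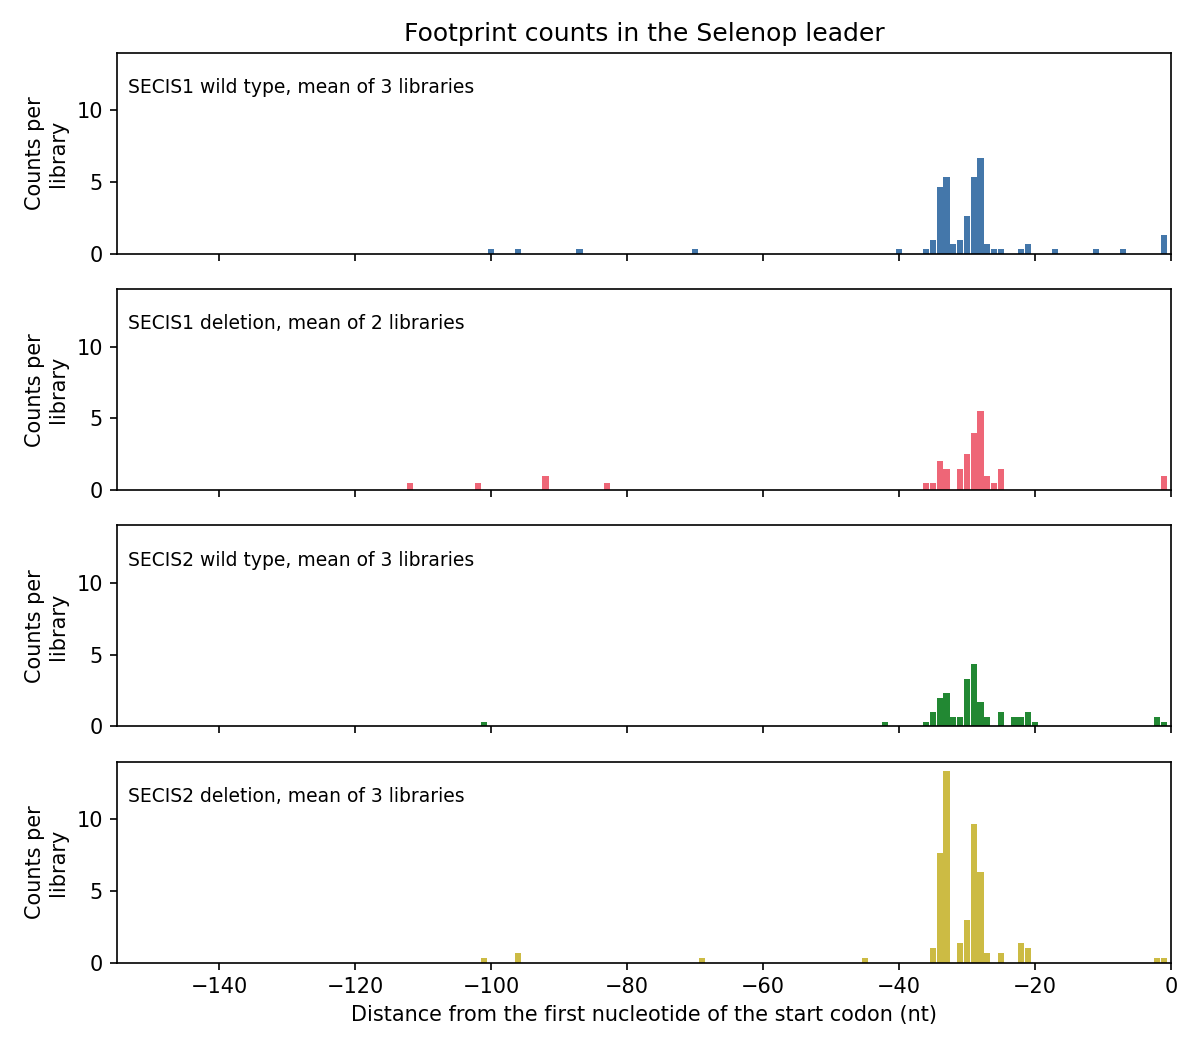
Mean counts per library at each nucleotide of the leader (vertical axis, linear from 0) against the distance from the first nucleotide of the start codon (horizontal axis), one panel per group. In each group the counts gather 35 to 28 nucleotides before the start codon, and the last 15 nucleotides are nearly empty. The first of the 2 maxima is weak in the SECIS1 deletion, with 1 and 3 counts at nucleotide 121 and 1 and 2 at nucleotide 122. It is also weak in SECIS2 wild type, with 2, 2 and 2 at nucleotide 121 and 2, 4 and 1 at nucleotide 122. These counts are low and are not scaled for depth.

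The wild type libraries of both lines differed per RNA. At codons 7 to 53 the ratio was 85.2, 62.5 and 81.4 in SECIS1 wild type and 48.9, 49.0 and 47.8 in SECIS2 wild type, with no overlap, a log2 difference of 0.65 (SE 0.12, adjusted p = 0.00599 in edgeR). Codons 54 to 58 differed by 0.86 (SE 0.25, adjusted p = 0.0357 in edgeR), and 30.0% of the 10 stretches tested were called higher in the SECIS1 line. At codons 3 to 6 the wild types stood at 0.18 (SE 0.23, 95% interval -0.34 to 0.69, adjusted p = 0.796 in edgeR), and this sign turned to -0.47 when counts at codons 7 to 53 were the scale. Scaled to the total count of the mRNA, the difference at codons 7 to 53 was 0.34 and was not called. At codons 54 to 58 the call was lost in 8 of 12 alternatives. These were leaving out SECIS1 wild type replicate 1 (0.72) or 3 (0.86) or SECIS2 wild type replicate 1 (0.92) or 3 (0.68), scaling to codons 7 to 53 (0.21) or to the total count (0.64), leaving out the highest nucleotide (0.84) and fitting the compared groups alone (0.86).

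Relative to codons 7 to 53, 1 of the 54 bins was called between the wild types, codon 44, beside 2.97% of all 269, with 0.372% called higher and 2.6% called lower in the SECIS1 line. It was higher in the SECIS1 line by 1.77 (SE 0.43, adjusted p = 0.0408 in edgeR), with occupancies of 1.17, 0.761 and 0.655 against 0.205, 0.471 and 0.146. The deletion libraries kept to their lines, at 1.11 and 0.836 in the SECIS1 line and 0.410, 0.399 and 0.633 in the SECIS2 line. The call was lost without SECIS1 wild type replicate 1 (1.49) or replicate 2 (1.85). Of the 112 nucleotides, 1 was called, nucleotide 300 of codon 49, beside 1.69% of all 473, with 0.634% higher and 1.06% lower in the SECIS1 line. It was higher in the SECIS1 line by 1.93 (SE 0.42, adjusted p = 0.0277 in edgeR), with 284, 132 and 72 counts against 18, 6 and 33. That call was lost without SECIS1 wild type replicate 1 (1.75) or 2 (1.91) or SECIS2 wild type replicate 2 (1.77). Without SECIS2 wild type replicate 1 the calls were 7 bins and 12 nucleotides, beside 10.3% of all bins and 8.87% of all nucleotides in the same fits. Without SECIS2 wild type replicate 3 they were 5 and 2, beside 13.4% and 5.27%. Without SECIS1 wild type replicate 1 they were 0 and 0, beside 0.758% and 0.0%, and without replicate 2 also 0 and 0, beside 0.755% and 0.0%. Without SECIS2 wild type replicate 2 there were 2 nucleotides, beside 1.96%.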

How the data were processed

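Per the file headers, the deposited tables give A-site counts at nucleotides 1 to 2096 of the Selenop mRNA (ENSMUSG00000064373.12, an identifier taken from a name table) and the authors' ratio defined above, which within a library equals the count times a constant. Fragments near 30 nt were kept, per the labels' protocols. Alignment was to mm9 with Bowtie, per the submitters' processing notes; the version and the rule for the A site are not given in the sources used here. RNA-seq entered only through the ratio. Total counts were 17585 to 66070 per grouped library.

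Stretches were tested with edgeR 4.0.16 (quasi-likelihood, R 4.3.3) on counts with library sizes from the ratio, adjusted (Benjamini-Hochberg) over 10 stretches in 4 comparisons. Bins of 3 nucleotides and nucleotides were tested on the whole mRNA after filterByExpr, with counts at codons 7 to 53 as library size, adjusted per comparison at 0.05. All 4 groups shared 1 fit. No pair of replicates agreed within counting noise (lowest chi-square per degree of freedom 3.23). Alternatives were other library sizes, DESeq2 1.42.0, limma 3.58.1 for stretches, no filter, only the compared groups, each library left out, a replicate block, stretches without their highest nucleotide, the ungrouped library placed by its heading, and, chosen after seeing the data, other ends of codons 3 to 6. Scripts were tested on simulated data.

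The stretch, its divisions and the named features were chosen with earlier results of these data known, including rises at codons 3, 6 and 49 and the decrease after UGA1 in the SECIS2 deletion, so these are not independent support. Named are the start codon, codon 2 and its first nucleotide, the 5 codons and nucleotides and the 3 leader nucleotides with the largest wild type share, and called features or else the smallest p; other features were chosen after their values were seen. No sequence of this mRNA was used here.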

Additional observations from a re-analysis of the deposited data

Results flagged for a closer look

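At nucleotide 188, the first of codon 12, the effects of both deletions differed by a test of the difference itself, at 2.15 on the log2 scale (SE 0.68, adjusted p = 0.0492 in edgeR). Counts there were 28, 15 and 16 in SECIS1 wild type, 12 and 24 in the SECIS1 deletion, 20, 7 and 21 in SECIS2 wild type, and the SECIS2 deletion held 9, 7 and 6. It was 1 of 112 nucleotides before UGA1, beside 13.1% of all 473 nucleotides. Over 19 alternatives the value ran from 1.41 to 2.62 and the edgeR or DESeq2 adjusted p from 0.0276 to 0.296; it stayed past the threshold in 1 of them, without SECIS2 wild type replicate 3. It was lost, for example, without SECIS1 deletion replicate 3 (1.47). The whole of codon 12 was not called in this comparison.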

How the results depend on the processing

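The rises at codons 3 to 6 kept their direction under every alternative run, at 0.70 to 1.43 in the SECIS1 line and 0.79 to 1.59 in the SECIS2 line; the upper ends come from scaling to the total count of the mRNA. With other ends of the stretch (codon 4, 5, 8 or 10), chosen after seeing the data, the values were 0.79 to 1.0 and 0.87 to 1.03, all called. Whether replicate numbers pair the samples was not settled. Deviations of same-numbered libraries correlated at -0.15 and -0.16 in the SECIS1 line and at 0.51, 0.0010 and 0.145 in the SECIS2 line. With 2 SECIS1 deletion libraries the deviations mirror each other, so the SECIS1 values cannot decide. SECIS2 libraries with different numbers ran from -0.35 to 0.31. With the replicate block the rises were 1.03 and 1.02 (adjusted p = 0.0321 in edgeR for both), their difference was 0.0061, and 0 nucleotides were called in the SECIS2 deletion and 0 in the difference. In fits of the compared groups alone, the SECIS2 rise (1.04) and the wild type difference at codons 7 to 53 (0.65) were not called.

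Scaled to the total count of the mRNA, SECIS2 values of the leader up to nucleotide 139 (1.35), codon 2 (1.46) and codons 54 to 58 (1.20) were called, the wild type difference at codons 7 to 53 was 0.34 and not called, and signs turned for the difference between the deletions at codons 7 to 53 (-0.21) and the wild type difference at codons 3 to 6 (-0.22). Scaled to codons 7 to 53, signs turned for the SECIS1 deletion at codons 54 to 58 (-0.047) and for the wild types at codon 2 (-0.30) and codons 3 to 6 (-0.47); codons 7 to 53 themselves have no value on that scale by construction. With the ungrouped library placed by its heading, codon 2 in the SECIS1 deletion stood at -0.0084 and the difference at codons 3 to 6 at 0.015. Without the highest nucleotide of each stretch, signs turned for the difference in the leader (0.32) and at codons 7 to 53 (-0.049), and for the wild types at the start codon (0.38; 0.30 with limma). With the end at codon 5 the difference was 0.023, and with the end at codon 4 the wild types stood at -0.025. None of these reversed values was called, and the cause was not tested.

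Leaving out 1 library gave these ranges. In the SECIS1 deletion they were -0.067 to 0.76 in the leader, -0.025 to 0.74 at the start codon, -0.046 to 0.85 at codon 2, 0.90 to 1.09 at codons 3 to 6, -0.0089 to 0.20 at codons 7 to 53 and -0.087 to 0.21 at codons 54 to 58. In the SECIS2 deletion they were 0.24 to 0.93 in the leader, -1.66 to 0.42 at the start codon, 0.56 to 1.12 at codon 2, 0.79 to 1.20 at codons 3 to 6, 0.07 to 0.15 at codons 7 to 53 and 0.25 to 0.60 at codons 54 to 58. For the difference between the deletions the ranges were -0.65 to 0.18 in the leader, -0.015 to 2.06 at the start codon, -0.82 to 0.090 at codon 2, -0.21 to 0.20 at codons 3 to 6 and -0.11 to 0.098 at codons 7 to 53. For the wild types they were -0.49 to 0.19 in the leader, -0.91 to 1.16 at the start codon and -0.22 to 0.69 at codon 2. Codons called ran from 0 to 10 in the SECIS2 deletion, 0 to 4 in the difference and 0 to 7 between wild types, and nucleotides called from 0 to 14, 0 to 4 and 0 to 12.

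Counts of codons called before codon 59 follow, each with the share of all bins called in the same fit in brackets. In the SECIS1 deletion they were 2 scaled to the total count of the mRNA (17.2%) and 1 with only the compared groups (19.1%). In the SECIS2 deletion they were 7 scaled to the total count (5.6%), 13 with TMM (9.67%), 17 with DESeq2 and its own size factors (12.6%) and 7 without the filter (18%). For the difference they were 2 with TMM (20.8%) and 4 with DESeq2 and its own size factors (20.8%). Between wild types they were 8 on the authors' ratio (10.7%), 2 with DESeq2 on the scale of codons 7 to 53 (6.84%) or its own (6.91%), 3 without the filter (4.17%) and 0 with only the compared groups (0.837%).

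Counts of nucleotides called are given likewise. In the SECIS1 deletion they were 1 scaled to the total count (11.4%), 1 with only the compared groups (14.1%) and 1 with the ungrouped library (15.6%). In the SECIS2 deletion they were 1 on the authors' ratio (6.03%), 1 on the total count (1.37%), 23 with DESeq2 and its own size factors (9.75%), 0 with only the compared groups (0.0%) and 0 with the replicate block (3.92%). For the difference they were 0 on the authors' ratio (14.1%), 0 on the total count (11.2%), 0 with DESeq2 at codons 7 to 53 (15%), 0 with the replicate block (4.63%), 2 with TMM (12.3%) and 7 with DESeq2 and its own size factors (16.3%). Between wild types they were 4 on the authors' ratio (3.79%), 3 on the total count (3.42%), 3 with TMM (2.33%), 3 and 4 with DESeq2 on the scale of codons 7 to 53 (5.66%) and its own (5.3%), 6 without the filter (2.2%) and 0 with only the compared groups (0.0%). Low counts in the leader, 13 to 54 per library, limit what can be told apart there.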

Other observations

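The ungrouped library, whose heading reads Secis1 Del, had 9820 counts before UGA1 and 43 after codon 378, the latter close to the 23 and 44 of the SECIS1 deletion libraries. Its ratio times 1000 was 7.37 at codons 3 to 6, 7.75 at codon 2 and 104 at codons 7 to 53. At codons 3 to 6 this lay within the range of the SECIS2 deletion and above both SECIS1 deletion libraries, and at codon 2 below both of them. Codon 2 held 6.21% of its coding counts before UGA1, less than in any of the 11 grouped libraries, where the share ran from 6.72% to 27.4%. The leader held 24 counts, 18 of them at nucleotides 120 to 127 and 0 at nucleotide 122. The correlation of its codon profile with the SECIS1 deletion libraries was 0.937 and 0.967, and with the SECIS1 wild type libraries 0.917 to 0.961. With this library placed in the SECIS1 deletion, codons 3 to 6 changed by 1.05 (SE 0.22, adjusted p = 0.00509 in edgeR).

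Among single libraries, SECIS1 wild type replicate 1 had the lowest share at codon 2 among grouped libraries and 227 counts at codon 17, where the other SECIS1 wild type libraries had 27 and 13. At codon 48 it had 1115 counts, against 336 and 201.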
